A study of Mus musculus with 26 samples.

Results

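C1qa, C1qb and C1qc encode the subunits of C1q, the recognition protein of the classical complement pathway. These 3 genes, of 18194 genes with a probe set of their own, were followed through 5 ages of the mouse lacrimal gland with all 5 probe sets, of 45101 on the array, that are annotated to one of them alone. They were chosen because their values differed between 8 and 4 weeks of age in these same arrays, so that step, and every comparison that shares its arrays, is given below as a description without a test. C1qa and C1qc each have 1 probe set. C1qb has 3, numbered 1 to 3 from the brightest, and probe set 1 stands for the gene. All 3 genes passed the filter on low values, among 12377 genes kept.

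The glands came from male C57BL/6.NOD-Aec1Aec2 mice, hybridised to 26 Affymetrix arrays. The ages of 4, 8, 12, 16 and 20 weeks have 4, 6, 6, 5 and 5 arrays in that order. Every mouse carried 2 stretches of the NOD genome on a C57BL/6 background, Idd3 (called Aec1) on chromosome 3 and Idd5 (called Aec2) on chromosome 1, which makes the strain a model of Sjögren's syndrome, an autoimmune disease of the tear and salivary glands. The submitters place 4 weeks before disease, 8 weeks in an early stage without clinical signs, 12 weeks at the arrival of leukocytes, 16 weeks in the early clinical phase and 20 weeks at the loss of secretion. No mice without the NOD regions were analysed here, so growth of the gland and course of the disease cannot be told apart. The labels call the arrays biological replicates without saying if several animals were pooled for one.

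C1q is built from the A, B and C chains, which join into a bouquet-shaped molecule with collagen-like stalks and globular heads. The heads bind antibody in immune complexes, pentraxins and the surface of dying cells, and the attached proteases C1r and C1s then cleave C4 and C2. Unlike most complement proteins, which the liver secretes into blood, C1q is made mainly by macrophages and related myeloid cells, and people who lack it often develop systemic lupus.

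The 3 genes lie side by side on chromosome 4 (GRCm38.p6), C1qb at 136880126 to 136886200, C1qc at 136889801 to 136892936 and C1qa at 136895916 to 136898844. Since the 3 genes were chosen together for one step between ages, the 250 bases before the start of C1qb and of C1qc are shown from RefSeq, 5′ to 3′ in the direction of the gene. The start used by the RefSeq promoter table for C1qc lies slightly inside the outer end of the gene given above. Capitals mark matches to motifs of factors known from myeloid cells. Both windows lie on the minus strand, C1qb's at chr4:136886201-136886450 and C1qc's at chr4:136892915-136893164.
C1qb: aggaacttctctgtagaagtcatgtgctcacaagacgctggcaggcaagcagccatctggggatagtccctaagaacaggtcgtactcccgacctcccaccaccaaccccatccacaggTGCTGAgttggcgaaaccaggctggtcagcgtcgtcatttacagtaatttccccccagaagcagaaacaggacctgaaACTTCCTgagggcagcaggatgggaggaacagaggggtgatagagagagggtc
C1qc: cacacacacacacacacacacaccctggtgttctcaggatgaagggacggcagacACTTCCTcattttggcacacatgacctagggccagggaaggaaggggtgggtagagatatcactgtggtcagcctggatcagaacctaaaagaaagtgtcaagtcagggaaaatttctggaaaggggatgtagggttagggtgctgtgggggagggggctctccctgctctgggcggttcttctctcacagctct
Both windows hold the core AGGAAGT of the macrophage factor PU.1 on the opposite strand, from base -53 to -47 before the start of C1qb and from -195 to -189 before that of C1qc, and 7.69% of 32851 mouse promoter windows hold it on either strand. The C1qb window also holds the MAF core TGCTGA on the same strand from -131 to -126, which 16.1% of promoter windows hold. The interferon response element, GAAA and GAAA with any 2 bases between (2.98% of windows), the C/EBP motif TTGCNNAA (9.56%) and the TATA box TATAAA (12.4%) were not found in either window. The motifs do not overlap each other, and a match describes letters in the window, not a site in use.

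Values are log2 expression as deposited, in which 1 unit is a 2-fold step, and probe sets differ in brightness, so only changes are compared between them. The term near background stands for a mean under 4.04, a limit set 1 unit above the middle of the array medians, and a change that starts from or ends at such a mean is a lower bound. The glands expressed epithelial genes strongly, with a mean of 8.65 to 11.9 on every array over 7 acinar and duct genes such as Aqp5 and Pigr. The mean of 6 salivary gland genes ran from 3.85 to 12.5 between arrays and that of 3 adipose genes from 3.25 to 8.11. Replicate 4 at 16 weeks and replicate 1 at 20 weeks stood apart on measures over all probe sets, and were singled out with earlier results known. Their standard deviations (SD) of all probe sets were 1.68 and 1.36, where the remaining 24 arrays had 1.78 to 2.27. These 2 arrays correlated with the arrays of their own age at a median r of 0.921 and 0.869, compared with 0.956 to 0.986. The later C1q differences, and many of the other calls at 16 and 20 weeks, are also given without these 2 arrays.

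All C1q probe sets were low at 4 weeks, high at 8 and 12 weeks, and stayed above the 4 week level at 16 and 20 weeks on every array but 1. C1qa, the A chain, had 4.43, 4.62, 3.21 and 5.23 at 4 weeks, a lowest, median and highest value of 7.54, 8.38 and 8.88 at 8 weeks, and of 7.53, 7.83 and 8.16 at 12 weeks. At 16 weeks C1qa had 6.58, 7.73, 5.78, 6.61 and 7.05, and at 20 weeks 2.74, 6.31, 6.83, 6.93 and 8.62. The order of the C1qa means was 8, 12, 16, 20 and 4 weeks. The ranges at 8 and 12 weeks overlapped, and 4 of the 5 arrays at 16 weeks lay below all arrays at 12 weeks. Only 20 weeks replicate 1, one of the arrays that stood apart, was as low as the 4 week arrays.

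C1qb, the B chain, gave 8.34, 7.52, 6.80 and 7.02 on probe set 1 at 4 weeks, then 9.37, 10.04 and 10.37 as lowest, median and highest value at 8 weeks and 9.41, 9.86 and 10.38 at 12 weeks. At 16 weeks the same probe set had 10.44, 11.26, 9.79, 10.002 and 10.07, and at 20 weeks 7.89, 10.50, 11.04, 10.27 and 11.43. Unlike for C1qa, the highest means were those of 16 and 20 weeks, although the ranges of 8, 12, 16 and 20 weeks all overlapped. Probe set 2 followed the same course, with a mean of 7.09 ± 0.35 (SD, n = 4) at 4 weeks, 8.98 ± 0.49 (n = 6) at 8 weeks, 8.86 ± 0.33 (n = 6) at 12 weeks, 9.06 ± 0.40 (n = 5) at 16 weeks and 9.08 ± 1.10 (n = 5) at 20 weeks. Probe set 3, near background at 4 weeks with 3.47 ± 0.41, had 6.78 ± 0.65, 6.54 ± 0.46, 6.37 ± 0.53 and 6.13 ± 1.80 at 8, 12, 16 and 20 weeks, so its means after 8 weeks did not climb as those of probe set 1 did. Probe sets 1 and 2 have names of the kind that marks possible binding to related transcripts, and probe set 3 does not.

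C1qc, the C chain, was near background at 4 weeks with 2.92, 2.62, 2.18 and 3.09. It had 5.15, 5.87 and 6.86 as lowest, median and highest value at 8 weeks and 5.16, 5.76 and 6.19 at 12 weeks. Its 5 arrays had 5.27, 6.33, 4.93, 5.81 and 5.83 at 16 weeks and 2.22, 5.55, 6.14, 6.33 and 6.27 at 20 weeks. The order of its means was 8, 12, 16, 20 and 4 weeks, as for C1qa, and the ranges of neighbouring ages overlapped except for 8 and 4 weeks, and for 4 weeks against the 20 week arrays other than replicate 1.

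**Figure D1:**
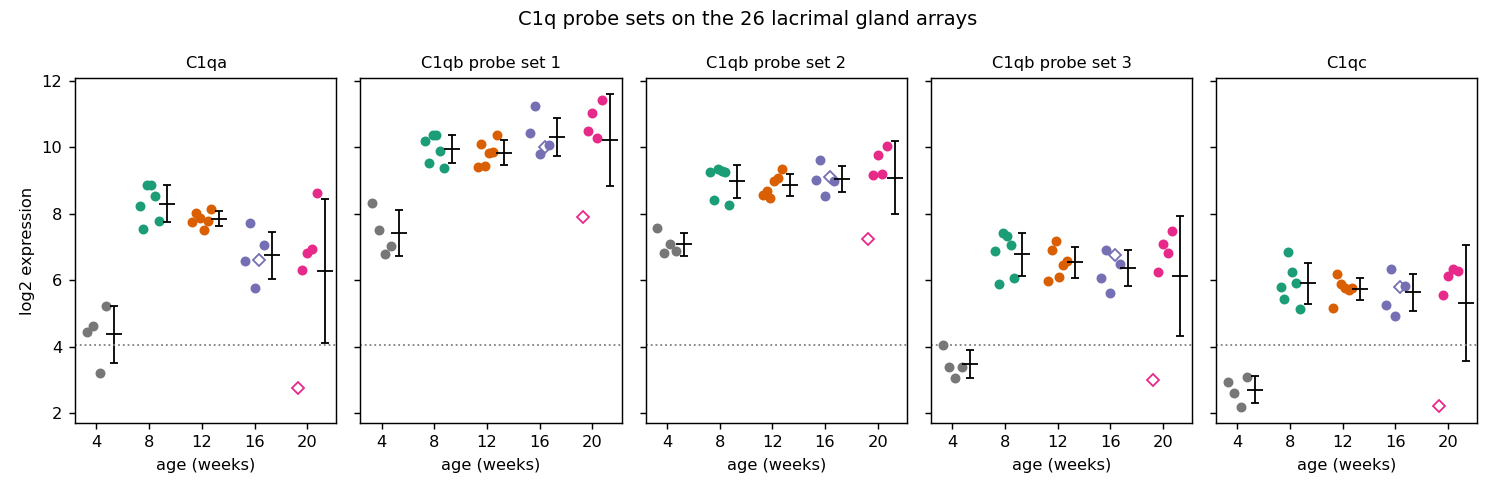
Log2 expression of the 5 C1q probe sets (vertical axis) at 5 ages in weeks (horizontal axis), with 1 point per array, the mean and SD in black beside the points, and a dotted line at the near-background limit of 4.04. Open diamonds are the 2 arrays that stood apart. The 4 week arrays lie below all 8 and 12 week arrays in every panel, and 20 weeks replicate 1 lies at or near the 4 week level.

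Between 8 and 4 weeks, the step by which the genes were chosen, C1qa averaged 8.31 ± 0.56 (SD, n = 6) at 8 weeks and 4.37 ± 0.85 (n = 4) at 4 weeks, a difference of 3.93 log2 units or 15.3-fold. C1qb averaged 9.95 ± 0.43 at 8 weeks and 7.42 ± 0.68 at 4 weeks on probe set 1, a 5.77-fold difference. Its probe set 2 differed 3.70-fold and its probe set 3 at least 9.88-fold. C1qc averaged 5.91 ± 0.61 at 8 weeks and 2.70 ± 0.40 at 4 weeks, at least 9.20-fold apart. On all 5 probe sets every 8 week array lay above every 4 week array, an arrangement that 3.34% of all genes kept showed in this comparison. Because the choice used this contrast, nothing is read from that count. In bulk tissue, fewer cells of a type and less RNA per cell cannot be told apart.

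From 8 to 12 weeks the level hardly moved. The 12 minus 8 week differences, which share the 8 week arrays, were -0.45 for C1qa, -0.11 for C1qb and -0.16 for C1qc, and 0 of the 3 genes had groups that did not overlap, beside 0.299% of all genes with every 12 week array above and 0.145% with every 12 week array below the 8 week arrays.

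The later ages hold arrays that played no part in the choice of the genes, and they were tested with limma over all genes kept. At 16 weeks C1qa averaged 6.75 ± 0.71 (SD, n = 5) and at 12 weeks 7.86 ± 0.22 (n = 6), a difference of -1.10 ± 0.63 log2 units (SE; limma, adjusted p = 0.315). C1qb differed by 0.47 ± 0.44 on probe set 1 (adjusted p = 0.521), beside 0.20 on probe set 2 and -0.18 on probe set 3. C1qc differed by -0.11 ± 0.52 (adjusted p = 0.898). Leaving out the 2 arrays that stood apart gave -1.07 for C1qa, 0.55 for C1qb probe set 1 and -0.16 for C1qc. None passed (limma, adjusted p = 0.149, 0.328 and 0.754). With all arrays none of the 3 passed, in a comparison where 2.98% of all genes were called. At an unadjusted p under 0.05 there were 0 of the 3 either, beside 2583 of the 12377 genes kept. The differences between 20 and 16 weeks were smaller for C1qa and C1qb, at -0.46 ± 0.66 for C1qa, -0.08 ± 0.46 for C1qb and -0.33 ± 0.54 for C1qc, with limma adjusted p of 0.802, 0.961 and 0.830. Here 0 of the 3 passed, beside 0.0162% of all genes, and 0 had an unadjusted p under 0.05, beside 1008 of the 12377 genes. Leaving out the 2 arrays that stood apart turned these differences to 0.39, 0.42 and 0.49.

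Between 20 and 12 weeks the differences of C1qa and of C1qb probe set 1 had opposite signs, and neither passed. C1qb probe set 2 differed by 0.22 and probe set 3 by -0.41, the latter with the sign of C1qa. C1qa averaged 6.29 ± 2.16 (SD, n = 5) at 20 weeks and 7.86 ± 0.22 (n = 6) at 12 weeks, a difference of -1.57 ± 0.63 (SE; limma, adjusted p = 0.0657), with 4 of the 5 arrays at 20 weeks below all 12 week arrays and replicate 5 above all of them. C1qb averaged 10.23 ± 1.38 at 20 weeks and 9.84 ± 0.37 at 12 weeks, a difference of 0.39 ± 0.44 (adjusted p = 0.493), with 3 of the 5 arrays above all 12 week arrays and replicate 1 below all of them. C1qc differed by -0.44 ± 0.52 (adjusted p = 0.499). In this comparison 24.9% of all genes were called. Of the 3 only C1qa was under an unadjusted p of 0.05 (limma), as were 5627 of the 12377 genes kept.

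The differences between 20 and 12 weeks depended on which arrays were included. Leaving out both arrays that stood apart left C1qa at -0.68, C1qc at 0.33 and C1qb probe set 1 at 0.97. The C1qb probe set 1 difference then passed (limma, adjusted p = 0.0497), as it did under no omission of 1 array. C1qb probe sets 2 and 3 then differed by 0.68 and 0.37, given without a test. Without 20 weeks replicate 5, the highest array of that age, C1qa differed by -2.15 and passed (limma, adjusted p = 0.0116). Without 20 weeks replicate 1, the C1qa difference was -0.68 and that of C1qc 0.33.

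Compared with 4 weeks, all 3 genes were still high at 20 weeks. This comparison shares the 4 week arrays with the choice of the genes and is given without a test. C1qa was 1.92 log2 units or 3.77-fold higher at 20 weeks, C1qb 2.81 units or 6.99-fold, and C1qc at least 2.60 units or 6.06-fold. On each gene 4 of the 5 arrays at 20 weeks lay above all 4 week arrays. With replicate 1 included, 0 of the 3 genes had groups that did not overlap, beside 1.58% of all genes, and without the arrays that stood apart all 3 did, with differences of 2.80, 3.39 and at least 3.37.

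The difference between the C1qa and C1qb probe sets was not the same at all ages. When each gene is centred on its own mean over the 26 arrays, C1qa minus C1qb averaged -0.30 ± 0.94 (SD, n = 4) at 4 weeks, 1.10 ± 0.26 (n = 6) at 8 weeks, 0.76 ± 0.30 (n = 6) at 12 weeks, -0.81 ± 0.39 (n = 5) at 16 weeks and -1.19 ± 0.90 (n = 5) at 20 weeks, the last being -0.89 ± 0.68 (n = 4) without replicate 1. Every array at 16 weeks, from -1.26 to -0.26, lay below every array at 12 weeks, from 0.43 to 1.17, and so did every array at 20 weeks, whose highest value was -0.06. C1qa minus C1qc separated 16 weeks, from -0.90 to -0.30, from 12 weeks, from 0.07 to 0.89, while 1 of the 20 week arrays reached 0.64. This ratio was chosen after its values were seen and has no test.

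The other C1qb probe sets gave a like picture with less separation. C1qa minus C1qb probe set 2 ran from -0.97 to -0.12 at 16 weeks and from 0.32 to 1.16 at 12 weeks. C1qa minus probe set 3 averaged -0.51 ± 0.39 at 16 weeks and 0.41 ± 0.38 at 12 weeks, and those ranges overlapped, from -1.06 to -0.06 at 16 weeks and from -0.23 to 0.86 at 12 weeks. C1qb minus C1qc shifted less, with 0.23 ± 0.44 at 16 weeks and -0.36 ± 0.35 at 12 weeks. Probe sets 1 and 3 of C1qb itself shifted by about as much as C1qb and C1qc, and by less than C1qa and C1qb. Probe set 1 minus probe set 3 averaged 0.30 ± 0.52 at 16 weeks and -0.35 ± 0.56 at 12 weeks. These values therefore describe probe sets, and a change between subunits and a difference between probe sets cannot be told apart. Measures of RNA integrity moved over the same ages. The excess of the 3' over the 5' actin control probe set, which is larger where transcripts are broken or incompletely copied, averaged 2.90, 2.63, 3.69, 4.56 and 3.89 at 4, 8, 12, 16 and 20 weeks. That of the Gapdh control averaged 1.62, 1.15, 1.80, 2.03 and 2.54, with an SD of 1.63 at 4 weeks. The part of either in the ratio was not tested.

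**Figure D2:**
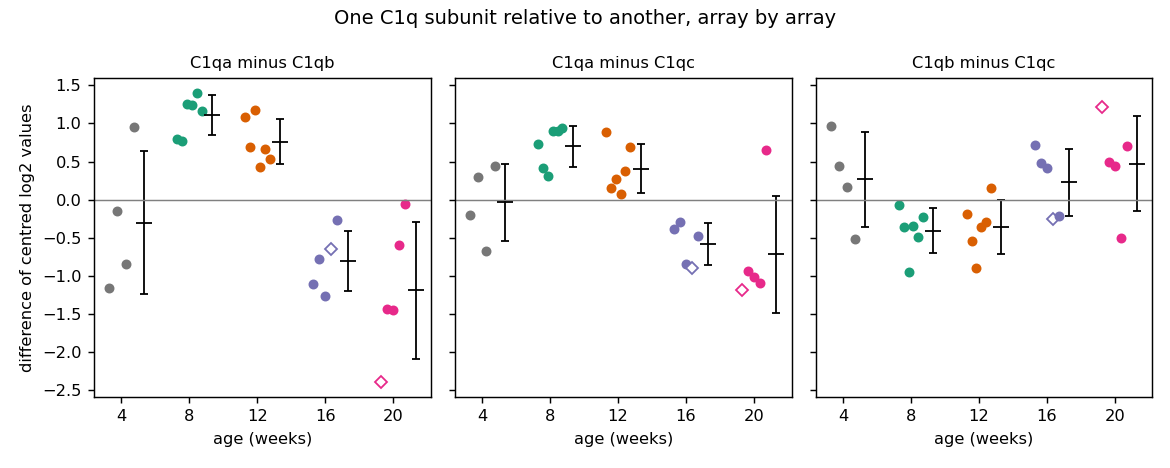
Difference between pairs of C1q subunits on each array (vertical axis, log2 values of each gene centred on its own mean over 26 arrays) at 5 ages in weeks, with the mean and SD in black and open diamonds for the 2 arrays that stood apart. In the left panel all 16 and 20 week arrays lie below 0 and all 8 and 12 week arrays above it.

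Within an age the 3 genes varied together. Deviations from the mean of the age leave out the steps between ages, and over the 26 arrays those of C1qa and C1qc had r = 0.914 and rho = 0.873 (permutation within ages, two-sided, p = 1e-05 for r, the smallest the draws can give, adjusted p = 0.00018 over 18 relations). C1qa and C1qb had r = 0.854 and rho = 0.724 (permutation p = 0.00028, adjusted 0.00084), and C1qb and C1qc r = 0.849 and rho = 0.727 (permutation p = 0.00028, adjusted 0.00084). Leaving out the 2 arrays farthest from the median of the gene on the x axis, one of them 20 weeks replicate 1 in each case, gave r = 0.768 for C1qa and C1qc, 0.589 for C1qa and C1qb, and 0.670 for C1qb and C1qc. On the 24 arrays other than those that stood apart r was 0.753, 0.640 and 0.624 in the same order, and all 3 relations still passed.

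The general spread of an array moved with C1q as well. Array SD and the gene's deviation had r = 0.750 for C1qa, 0.762 for C1qb and 0.722 for C1qc (permutation, adjusted p = 0.00985, 0.00357 and 0.0314), with rho of 0.539, 0.554 and 0.510 over the 26 arrays, and r was 0.501, 0.505 and 0.469 without the 2 arrays that stood apart. Without those 2 arrays all 3 relations still passed (permutation, adjusted p = 0.0337, 0.0457 and 0.0498). Without 20 weeks replicate 1 alone r was 0.440, 0.496 and 0.328, and none of the 3 passed (adjusted p = 0.0965, 0.0797 and 0.247). The actin 3' minus 5' difference had r = -0.499 and rho = -0.406 with C1qa (permutation, adjusted p = 0.0362 for r and 0.116 for rho). Its r fell short without the arrays that stood apart (r = -0.440, adjusted p = 0.155) and in 6 omissions of 1 array. It was -0.629 without the 2 arrays farthest on the actin measure. The actin difference had r = -0.285 with C1qb and -0.368 with C1qc, neither of which passed. The adipose gene mean had r = 0.328 and rho = 0.460 with C1qb (adjusted p = 0.0432 for r). It was 0.365 without the 2 arrays farthest on the adipose mean and did not pass without the arrays that stood apart (r = 0.355, adjusted p = 0.235). With 1 of the 26 arrays left out at a time, it did not pass in 17 omissions. No adipose relation with C1qa or C1qc and no salivary gland relation passed for r. What part these measures have in the shared variation was not tested.

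Macrophage genes, from the cells known to make most C1q, were low at 4 weeks and higher at 8 and 12 weeks. Of 18 listed macrophage genes, 16 were kept, and the mean over these 16 ran from 4.27 to 4.73 at 4 weeks, from 5.48 to 6.33 at 8 weeks, from 5.55 to 6.09 at 12 weeks, from 4.93 to 6.05 at 16 weeks and from 4.53 to 6.51 at 20 weeks. Every 8, 12 and 16 week array lay above every 4 week array on this mean, and at 20 weeks replicate 1 did not. At 8 against 4 weeks 5 of the 16 rose and 0 fell (limma), while 1.14% of all genes were called higher. The median difference was 1.19, against 0.03 over all genes kept. With 1 array left out at a time the count of 5 became 1 to 7, and it was 1 without 4 weeks replicate 3 or 8 weeks replicate 4.

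Lyz2, which encodes a lysozyme of macrophages and neutrophils, averaged 10.75 ± 0.43 (SD, n = 6) at 8 weeks and 7.17 ± 0.96 (n = 4) at 4 weeks (limma, adjusted p = 0.00066). Tyrobp, a signalling adaptor of myeloid receptors, averaged 7.49 ± 0.65 and Fcer1g, the chain that Fc receptors share, 5.08 ± 0.80 at 8 weeks, against 5.17 ± 0.55 and 3.32 ± 0.02 at 4 weeks (adjusted p = 0.0208 and 0.0424). Apoe, an apolipoprotein that macrophages secrete, averaged 8.96 ± 0.80 at 8 weeks and 5.22 ± 1.32 at 4 weeks, and Laptm5, a lysosomal protein of blood cells, 8.17 ± 0.80 at 8 weeks and 5.27 ± 1.15 at 4 weeks (adjusted p = 0.0354 and 0.0461). All 8 week arrays lay above all 4 week arrays for each of these 5 genes, as for 3.34% of all genes kept. Not every defining marker was called. Cd14, Cd163, Cx3cr1, Fcgr1, Marco, Mertk and Msr1 were near background at every age. Cd68, Adgre1, Csf1r, Mrc1, Aif1 and Ms4a7 had higher means at 8 weeks but did not pass (limma, adjusted p = 0.0682, 0.406, 0.0885, 0.228, 0.256 and 0.155). Without the arrays that stood apart Cd68, Adgre1 and Csf1r passed (limma, adjusted p = 0.0194, 0.0316 and 5.9e-05).

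Between neighbouring ages after 8 weeks no macrophage gene was called. No member passed between 12 and 8 weeks (limma), beside 0.0162% of all genes. Nor did any between 16 and 12 or 20 and 16 weeks, beside 2.98% and 0.0162% of all genes. In these 3 comparisons 0, 2 and 0 of the 16 had an unadjusted p under 0.05, beside 614, 2583 and 1008 of the 12377 genes kept. Between 20 and 12 weeks 1 rose, by 0.23, and it was Cx3cr1, a chemokine receptor near background at both ages, where 8.72% of all genes were called higher. Without the arrays that stood apart Cx3cr1 did not pass (limma, adjusted p = 0.0878) and Csf1r did (0.68, adjusted p = 0.0161). Between 20 and 4 weeks 4 of the 16 rose and 0 fell, beside 0.897% of all genes called higher. Leaving out single arrays gave 0, without 4 weeks replicate 4, to 8, without 20 weeks replicate 1. The 4 were Csf1r, the receptor for the macrophage growth factor, by 2.02 ± 0.41 (SE; limma, adjusted p = 0.0114), Laptm5 by 3.29 ± 0.76 (0.0252), Lyz2 by 2.31 ± 0.54 (0.0270) and Tyrobp by 2.08 ± 0.52 (0.0370).

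Within ages the macrophage mean tracked every C1q gene. Its r was 0.858 with C1qa, 0.888 with C1qb and 0.841 with C1qc, with rho of 0.771, 0.824 and 0.748 (permutation, adjusted p for r = 0.00072, 0.00018 and 0.00084). Without the 2 arrays that stood apart, which were also the farthest on this measure, r was 0.779, 0.810 and 0.823. Means of plasma cell, fibroblast or acinar and duct genes were not tested in this way. The median r of those genes within ages, which was higher over all arrays than that of the macrophage genes, is given below.

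Markers of other cell types moved over the same ages. Of 6 listed plasma cell genes 4 were kept, and their mean ran from 6.81 to 7.31 at 4 weeks, from 8.33 to 9.503 at 8 weeks, from 9.505 to 10.53 at 12 weeks, from 7.22 to 10.54 at 16 weeks and from 7.58 to 11.20 at 20 weeks. The lowest array was 9.86 at 16 weeks and 9.84 at 20 weeks without those that stood apart. Every 8 and 12 week array lay above every 4 week array on this mean, as for the macrophage genes. Igha, the heavy chain of IgA, averaged 9.41 ± 0.70 (SD, n = 6) at 8 weeks and 6.23 ± 0.90 (n = 4) at 4 weeks (limma, adjusted p = 0.00666). Jchain, the chain that joins IgA or IgM units, averaged 5.57 ± 0.91 at 8 weeks and 3.55 ± 0.40, near background, at 4 weeks (adjusted p = 0.136). All 8 week arrays lay above all 4 week arrays for both, as for 3.34% of all genes kept. The other kept genes in this mean, Xbp1 and Sdc1, differed by 0.34 and 1.05 at 8 minus 4 weeks and did not pass (limma, adjusted p = 0.834 and 0.315). Xbp1 differed by -0.06 at 20 minus 4 weeks (adjusted p = 0.991). The plasma cell genes Mzb1 and Tnfrsf17 were not kept. Without the arrays that stood apart the 8 minus 4 week differences of Jchain and Sdc1 passed (limma, adjusted p = 0.0126 and 0.0427). Between 12 and 8 weeks Igha differed by 2.19 and Jchain by 2.48, without overlap, as 0.299% of all genes did upward. Neither passed over all arrays (limma, adjusted p = 0.248 and 0.171), and both did without those that stood apart (0.0355 and 0.0210). Jchain averaged 8.05 ± 0.57 at 12 weeks and 8.37 ± 1.93 at 20 weeks, and the 20 minus 4 week difference was at least 4.82 (adjusted p = 0.00038). At 8 against 4 weeks 1.14% of all genes were called higher. Of the 4 plasma cell genes 1 was called higher, with a median difference of 1.54, and of the 7 acinar and duct genes 1. That gene was Pigr, the receptor that carries IgA and IgM across the epithelium, with 11.78 ± 0.31 at 8 weeks and 10.04 ± 1.08 at 4 weeks (adjusted p = 0.0495). Of the 6 fibroblast genes 0 were called higher and 1 lower, where 168 of the 12377 genes kept were called in either direction. What part these cell types have in the C1q values was not tested.

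**Figure D3:**
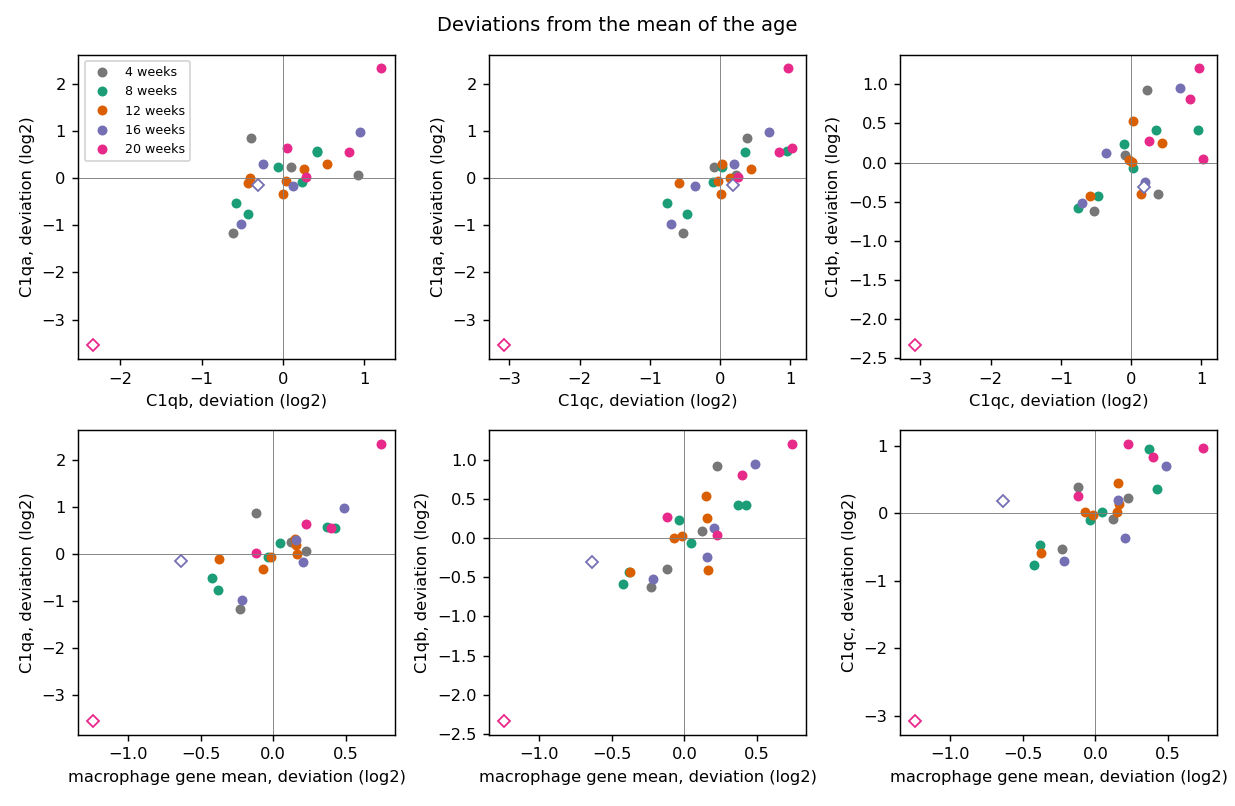
Deviations of log2 expression from the mean of the age, 1 point per array, for pairs of C1q genes (upper panels) and for each C1q gene against the mean of 16 macrophage genes (lower panels), with open diamonds for the 2 arrays that stood apart. Points run from lower left to upper right in every panel, and 20 weeks replicate 1 lies far to the lower left.

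Of 7 transcription factors known from macrophages with a probe set, 6 were kept and none rose in any comparison over all 26 arrays. Between 20 and 12 weeks Irf8, needed for monocytes and some dendritic cells, fell by 1.73 and Cebpa, a factor of the myeloid lineage that fat and liver cells also use, fell by 2.70 (limma, adjusted p = 0.0128 and 0.00371), both to means near background and so by at least these amounts, in a comparison with 16.2% of all genes called lower. Spi1, the gene of PU.1, was near background at every age, as were Irf5 and Nr1h3. Maf averaged 5.76 ± 0.98 at 4 weeks, 6.98 ± 0.62 at 8 weeks and 7.31 ± 1.77 at 20 weeks and did not pass in any comparison over all arrays. Without the arrays that stood apart its 20 minus 4 week difference of 2.30 passed (limma, adjusted p = 0.00445).

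The genes whose values ran closest to C1q were sought with Pearson's r against the mean of the standardised C1qa, C1qb and C1qc values. Over the 26 arrays the 10 highest were Lyz1 (0.956), Lyz2 (0.950), H2-Eb1 (0.950), Tyrobp (0.928), Cotl1 (0.919), Mpeg1 (0.914), Ctss (0.908), Lcn2 (0.900), Srgn (0.900) and Nfkbia (0.898), where the median over 12374 genes was 0.117 over the 16 macrophage genes 0.681, over the 4 plasma cell genes 0.705 and over the 7 acinar and duct genes 0.383. Lyz1 and Lyz2 are near-identical lysozyme genes whose probes may share transcripts. H2-Eb1 encodes a chain of MHC class II, Mpeg1 a pore-forming protein of macrophages, Ctss the protease cathepsin S and Lcn2 the iron-sequestering protein lipocalin 2. Without the 2 arrays that stood apart, Lyz1, Lyz2, H2-Eb1, Tyrobp and Ctss remained among the 10 highest, joined by H2-Ab1, Cd74, H2-Aa, Ccl9 and Sbsn. These likenesses describe arrays that share tissue, age and array quality, and carry no test.

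Within ages the list changed. The 10 highest r of deviations from the age means were those of Ctsb (0.927), Rpl6 (0.920), Akr1a1 (0.920), Lyz1 (0.919), Ghitm (0.912), Pdcd6 (0.911), H2-Eb1 (0.910), Cdc42 (0.907), Ankrd13c (0.906) and Tmem176b (0.905). Most of these are expressed in many cell types, such as Rpl6, a ribosomal protein, and Cdc42, a small GTPase. Within ages the median r was 0.490 over the macrophage genes, below 0.610 over the acinar and duct genes, 0.593 over the plasma cell genes and 0.554 over 6 fibroblast genes, where all genes had 0.0924. On the 24 other arrays, without those that stood apart, these medians were 0.509, 0.522, 0.423 and 0.400, and 0.0803 over all genes. Without the 2 arrays that stood apart, Lyz2 led with 0.852, followed by Mri1 (0.838) and Apoe (0.838), and Lyz1 alone of the first 10 remained.

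The other genes of the complement system were mostly near background. Of 51 other complement genes listed, 41 had a probe set and 26 were kept, and 31 of the 41 were near background at every age. C3 and C4 had no probe set annotated to them alone, so neither was measured here. At 8 against 4 weeks 1 of the 26 rose and 0 fell (limma), 4 at an unadjusted p under 0.05, with a median difference of -0.07, against 0.03 over all genes kept, 1.14% of which were called higher. Between 12 and 8, 16 and 12 and 20 and 16 weeks 0 passed (limma), beside 0.0162%, 2.98% and 0.0162% of all genes. In these comparisons 1, 3 and 2 had an unadjusted p under 0.05, beside 614, 2583 and 1008 of the 12377 genes kept. At 8 against 4 weeks 1748 of the 12377 had such a p. Between 20 and 4 weeks 1 rose and 0 fell, beside 0.897% of all genes called higher, and without the arrays that stood apart 5 passed.

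The C1 proteases and C2, the partners on which C1q acts, were low. C1ra, one of the mouse genes for C1r, averaged 4.01 ± 0.51 (SD, n = 6) at 8 weeks and 3.63 ± 0.19 (n = 4) at 4 weeks, and C1s1, one of those for C1s, 4.04 ± 0.42 at 8 weeks and 4.16 ± 0.70 at 4 weeks. Their differences were 0.38 ± 0.31 for C1ra and -0.12 ± 0.35 for C1s1 (SE; limma, adjusted p = 0.512 and 0.855). C2, cleaved by C1s, averaged 4.27 ± 0.96 (n = 5) at 20 weeks and 2.69 ± 0.34 at 4 weeks. Every 20 week array lay above every 4 week array, as for 1.58% of all genes. The adjusted p was 0.0968 (limma), or 0.0254 without the arrays that stood apart.

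Clu, which encodes clusterin, a secreted chaperone that also blocks the terminal complement complex, was the complement gene that rose at 8 weeks. It averaged 11.47 ± 0.58 at 8 weeks and 9.89 ± 0.19 at 4 weeks (1.58 ± 0.27, SE; limma, adjusted p = 0.00297), and it was not called after quantile normalization. At 20 weeks Clu averaged 12.45 ± 0.47, a difference of 2.56 ± 0.28 from 4 weeks (adjusted p = 1.28e-05). Serping1, the C1 inhibitor, named here after its values were seen, averaged 5.37 ± 0.51 at 8 weeks and 4.51 ± 0.33 at 4 weeks (0.86 ± 0.39; adjusted p = 0.326), and its 20 minus 4 week difference of 1.31 passed only without the arrays that stood apart (adjusted p = 0.0330).

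Between 20 and 12 weeks 5 of the 26 rose and 0 fell (limma), beside 8.72% of all genes called higher. The count was 1 to 9 with single arrays left out. Colec10, a lectin that can start the lectin pathway, differed by 0.59 ± 0.14 (SE; adjusted p = 0.00987) and C3ar1, the receptor for the C3a fragment, by 0.66 ± 0.24 (adjusted p = 0.0497), while C9, C4bp and Csmd1 differed by 0.20 to 0.21. All but C3ar1 were near background at every age, and C3ar1 was so at 12 weeks. Without the arrays that stood apart Colec10 and C3ar1 passed while C9, C4bp and Csmd1 did not (limma, adjusted p = 0.0834, 0.117 and 0.125), and Cr1l, a regulator related to complement receptor 1, fell by 0.68 (adjusted p = 0.0315). The other kept genes of the terminal and alternative pathways, C6, C8b, C8g, Cfb and Cfp, did not pass in any comparison.

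**Figure D4:**
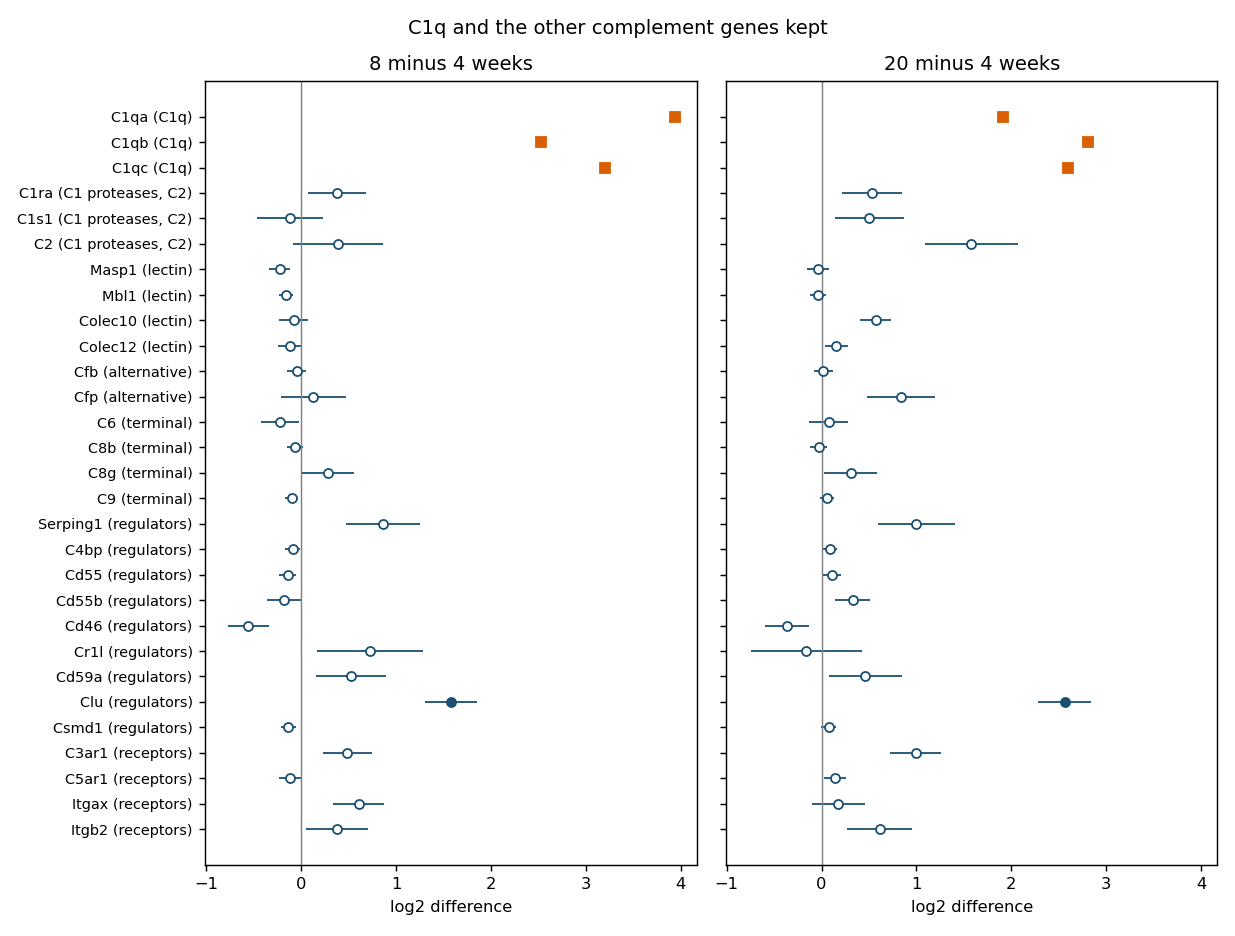
Log2 differences (horizontal axis) for 8 minus 4 weeks on the left and 20 minus 4 weeks on the right, for the 3 C1q genes (orange squares, without error bars or test because they were chosen on these arrays) and the 26 other complement genes kept (circles with the SE of the limma fit, filled where the adjusted p was under 0.05). C1q and Clu stand to the right of the other complement genes at 8 weeks.

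Genes for proteins that bind C1q, or that C1q binds, were followed beside it. Of 10 proteins reported to bind C1q or act as its receptor, 8 were kept and 0 passed at 8 against 4 weeks (limma). There 1.14% of all genes were called higher. At an unadjusted p under 0.05 there was 1 of the 8, beside 1748 of the 12377 genes kept. Without the arrays that stood apart 1 passed, Calr, named here after its values were seen (0.65, adjusted p = 0.0338). Between 20 and 12 weeks C1qbp, a mostly mitochondrial protein that binds the globular heads, fell by 1.12 ± 0.27 (SE; adjusted p = 0.0099), with 8.81 ± 0.92 (SD, n = 5) at 20 weeks and 9.93 ± 0.23 (n = 6) at 12 weeks. All 5 arrays at 20 weeks lay below all 12 week arrays, as did 4.57% of all genes. Without the arrays that stood apart C1qbp fell by 0.72 (limma, adjusted p = 0.00971). Calr, the chaperone calreticulin, averaged 12.05 ± 1.23 at 20 weeks and 13.62 ± 0.19 at 12 weeks, again without overlap, and missed the threshold (adjusted p = 0.0533), while it passed without the arrays that stood apart (-1.04, adjusted p = 0.0011). Megf10, a phagocytic receptor near background at every age, differed by 0.22 (adjusted p = 0.0344), and by 0.20 (adjusted p = 0.0846) without them.

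Of the antibody chains and pentraxins that C1q recognises, 4 of 5 with a probe set were kept. Ighm, the heavy chain of IgM, the antibody class that activates C1q most strongly, was near background at 4, 8 and 16 weeks. It averaged 3.73 ± 0.15 (SD, n = 4) at 4 weeks, 4.15 ± 0.77 (n = 6) at 12 weeks and 5.79 ± 1.54 (n = 5) at 20 weeks, so that it rose by 1.64 ± 0.47 against 12 weeks and by at least 2.06 ± 0.52 against 4 weeks (SE; limma, adjusted p = 0.0217 and 0.0391). Ptx3, a pentraxin, differed by 0.21 between 20 and 12 weeks (adjusted p = 0.0397), with means near background, and did not pass without the arrays that stood apart (adjusted p = 0.118).

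Proteins with a C1q-like globular head outside complement form the C1q/TNF family, and 24 of its genes had a probe set. Of these 13 were kept and 20 were near background at every age. None passed at 8 against 4 weeks (limma), where 168 of the 12377 genes kept did. An unadjusted p under 0.05 was found for 1, beside 1748 of the 12377, and the median difference was -0.07. C1qtnf3, a secreted member made by fat and cartilage, rose by at least 0.47 ± 0.16 between 20 and 12 weeks (SE; limma, adjusted p = 0.0397), with 4.26 ± 0.45 (SD, n = 5) at 20 weeks and 3.78 ± 0.30 (n = 6), near background, at 12 weeks. It did not pass without the arrays that stood apart (adjusted p = 0.0934). No other member passed in any comparison.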

How the data were processed

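The deposited table holds log2 expression for 45101 probe sets on 26 arrays. RMA and GCRMA are named in the submitters' processing notes, and their versions and which of them made the values are not given in the sources used here. The values were used as they are. Probe sets were named from the platform annotation, where 34958 carry a single gene symbol, 932 carry several and 9211 are absent. A gene was represented by its brightest probe set, and kept if that exceeded the array median on 4 or more arrays. Detection calls were not used here.

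One mean per age was fitted over all 26 arrays with limma 3.58.1 (R 4.3.3; lmFit, eBayes), with two-sided contrasts and Benjamini-Hochberg adjustment over the 12377 genes kept, called at an adjusted p under 0.05. The fit was first tested on simulated data. P-values reflect only the spread among these samples, which may be technical, and the number of arrays limits the precision. Correlations are of deviations from age means, with 100000 permutations within ages. The members and gene lists were chosen with earlier results of these data known. Named were all C1q probe sets, up to 6 called members per list and comparison, every kept member of the C1 protease, C3 and terminal lists (those of them with 8 or fewer kept, which the regulator list exceeded), and the 10 genes most like C1q. Alternatives were quantile normalization, centring, other filters, other probe set rules, eBayes with trend, array weights, a replicate block, and leaving out arrays. Replicate numbers did not pair the samples.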

Additional observations from a re-analysis of the deposited data

Results flagged for a closer look

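Within each age with 4 or more arrays, a lowest or highest array was compared with the rest for each of the 5 C1q probe sets. Of 25 such groups, 2 had 1 array separated from the others by more than Dixon's critical value, and chance alone does so in about 1 group in 20. Both were 20 weeks replicate 1. On C1qb probe set 3 that array had 3.01, where the other 4 arrays of its age ran from 6.25 to 7.48. On C1qc it had 2.22, where the others ran from 5.55 to 6.33. This array also had the least spread over all probe sets, and the part of that spread in its C1q values was not tested.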

How the results depend on the processing

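All settings were chosen with earlier results of these data known. The 8 minus 4, 12 minus 8 and 20 minus 4 week differences of the C1q genes moved by less than the spread between replicates under all 90 changes of setting and 234 omissions of 1 array. Of the tested later differences, 74 of 90 values kept direction and side of the threshold. Array weights, for which the estimation stopped before it converged, made C1qa pass at 16 minus 12 weeks (-1.33, adjusted p = 0.0280) and 20 minus 12 weeks (-1.19, adjusted p = 0.0291) and C1qb at 20 minus 12 weeks (0.87, adjusted p = 0.0271), and turned 20 minus 16 weeks to 0.14 (C1qa), 0.55 (C1qb) and 0.42 (C1qc), and C1qc at 20 minus 12 weeks to 0.094. Quantile normalization made C1qb pass at 16 minus 12 weeks (0.96, adjusted p = 0.0457) and 20 minus 12 weeks (1.22, adjusted p = 0.00665), and turned C1qc at 16 minus 12 weeks to 0.32 and C1qb at 20 minus 16 weeks to 0.26. Without the 2 arrays that stood apart, 20 minus 16 weeks became 0.39, 0.42 and 0.49 for C1qa, C1qb and C1qc, and 20 minus 12 weeks 0.97 for C1qb and 0.33 for C1qc. The cause was not tested. Leaving out 1 array at a time gave -0.29 to 0.063 for C1qc at 16 minus 12 weeks. At 20 minus 16 weeks it gave -1.05 to 0.42 for C1qa, -0.39 to 0.50 for C1qb and -0.58 to 0.44 for C1qc. At 20 minus 12 weeks it gave -2.15 to -0.68 for C1qa and -0.70 to 0.33 for C1qc.

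Counts of genes moved more. Among complement genes other than C1q, array weights called 10, 2, 1, 9 and 10 at 8 minus 4, 16 minus 12, 20 minus 16, 20 minus 12 and 20 minus 4 weeks, and quantile normalization 0, 1 and 4 at 8 minus 4, 20 minus 12 and 20 minus 4. At 20 minus 12 weeks median centring called 1, no filter 9 and a stricter filter 0. At 20 minus 4 weeks a stricter filter, the mean of probe sets and single probe sets each called 2. Without the 2 arrays that stood apart 2, 3 and 5 were called at 8 minus 4, 20 minus 12 and 20 minus 4. Single omissions gave 1 to 9 at 20 minus 12 and 1 to 5 at 20 minus 4. Among macrophage genes, array weights called 13, 3, 6 and 11 at 8 minus 4, 16 minus 12, 20 minus 12 and 20 minus 4 weeks. No filter gave 2 and omission of the 2 arrays 8 at 8 minus 4, and that omission gave 10 at 20 minus 4. At 20 minus 12 quantile normalization and the mean of probe sets gave 2, and centring and a stricter filter 0. Single omissions gave 1 to 7, 0 to 5 and 0 to 8 at 8 minus 4, 20 minus 12 and 20 minus 4. Over all genes, the settings called 93 to 4557 genes at 8 minus 4 weeks (168 in the fit reported), 1 to 142 at 12 minus 8 (2), 201 to 2795 at 16 minus 12 (369), 0 to 249 at 20 minus 16 (2), 1664 to 5697 at 20 minus 12 (3078) and 163 to 3473 at 20 minus 4 (273).

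Same-numbered arrays of different ages did not deviate together, with a median r of -0.08 over 47 pairs, so the numbers do not pair the samples. With the replicate number as a block, C1qa differed by -1.12, C1qb by 0.47 and C1qc by -0.19 at 16 minus 12 weeks, and no C1q call changed. The replicate block left 1 macrophage gene at 8 minus 4, 0 at 20 minus 12 and 1 at 20 minus 4, and 1 complement gene at 20 minus 12.

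The relations of the C1q genes with each other and with the macrophage mean passed under every setting and omission run. Array SD was taken from the deposited values, and after quantile normalization its r was 0.56 with C1qa, -0.031 with C1qb and 0.53 with C1qc, none passing. Single omissions gave 0.44 to 0.81, 0.50 to 0.80 and 0.33 to 0.81. The actin relation with C1qa had r = -0.54 after quantile normalization (adjusted p = 0.106) and -0.44 without the 2 arrays (adjusted p = 0.155), and -0.57 to -0.40 under single omissions. With C1qc it passed only without the 2 arrays farthest on the actin measure (r = -0.53). The adipose relation with C1qb did not pass after quantile normalization (0.33), on the mean of probe sets (0.18) or without the 2 arrays (0.36), and ran from 0.21 to 0.46 under single omissions, and the salivary gland relation from 0.22 to 0.45. The number of arrays, 4 at 4 weeks, and signals near background limit what can be seen.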
